A study of Mus musculus with 4 samples.

Results

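Gpnmb Trem2 macrophages are lung phagocytes that carry RNA of the membrane glycoprotein Gpnmb, the lipid-sensing receptor Trem2 and the membrane protein Syngr1. A barcode was counted as a member when it had at least 3 UMIs of these 3 genes together and more of them than of Pf4, Ccl12 and Ccl8, genes of another lung macrophage. It also had fewer than 2 of 6 alveolar macrophage genes (Ear1, Car4, Krt79, Fabp1, Plet1 and Marco), under 2% of its UMIs from S100a8 and S100a9, and no UMI of the lymphocyte genes Cd79a and Cd3e. By this rule 772 of 18985 filtered cells were members: 473 of 8944 in the library labelled WT and 299 of 10041 in the library labelled Plaur KO. The rule used RNA values of these same cells, so the levels of its genes are descriptions.

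The cells came from digested lungs and were sorted for CD45.2, the pan-leukocyte surface protein. Both groups were labelled C57B6/J, and all mice had been given lipopolysaccharide with ovalbumin on days 0 and 7 and aerosolized ovalbumin on day 14. The knockout group carries Plaur-/-, which removes the urokinase receptor uPAR, a membrane-anchored receptor that holds the protease urokinase at the cell surface. The design names 8 mice per genotype, and there was 1 RNA library with 1 antibody library for each. In the labels the cells appear under the name of circulating leukocytes in 1 field and of a total lung lysate in another. How many mice entered a library and their age are not given in the sources used here, and no unchallenged mice were analysed here. No test between genotypes was possible, and every interval below is a 95% interval that covers counting error only.

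Macrophages of this kind are known from fat tissue, atherosclerotic plaques, fibrotic lung and tumours, where they take up lipid and cell debris. TREM2 signals through the adaptor TYROBP and the kinase SYK, and cells with an active receptor typically carry lysosomal, lipid-binding and cholesterol-export genes. Apolipoprotein E, made by many tissue macrophages, is both a carrier of exported cholesterol and a TREM2 ligand. In the lung, SPP1 and the elastase MMP12 mark macrophages that remodel matrix.

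The members were deeply covered cells. Their median was 8623 UMIs and 2805 genes per cell in the library labelled WT, and 7918 UMIs and 2619 genes in the library labelled Plaur KO. The medians over all filtered cells were 3288.5 and 2886 UMIs. Summed over members there were 4346878 and 2542557 UMIs. The libraries shared 16 barcode sequences, 1 of them a member in the library labelled Plaur KO and none in the other. Scrublet called 4 and 10 members doublets, of 260 and 457 calls in the whole libraries. Levels below are CPM, the UMIs of a gene scaled to the UMIs of all genes (depth-normalised counts), both summed over the cells. Counts of 3′ ends do not scale with gene length.

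Of the 5 marker genes, Gpnmb, Trem2 and Syngr1 chose the cells, and only Mmp12 and Spp1 lie outside the rule. In the library labelled WT, Gpnmb was at 1454 CPM, Trem2 at 589.9, Syngr1 at 218.3, Mmp12 at 228.9 and Spp1 at 1221. In the library labelled Plaur KO, Gpnmb was at 1124 CPM, Trem2 at 524.7, Syngr1 at 181.3, Mmp12 at 410.6 and Spp1 at 1628. At least 3 of the 5 markers were found in 77.4% and 72.9% of members, and all 5 in 10.8% and 14.0%. Cd68, a lysosomal glycoprotein of macrophages, was found in 93.2% and 90.0% of members. Csf1r, the receptor for the macrophage growth factor CSF1, was found in 77.2% and 76.3%. Every member passed the rule with at least 3 marker UMIs, with a median of 14 in the library labelled WT and 11 in the library labelled Plaur KO. Members with 3 to 5 marker UMIs made up 17.1% and 32.4%.

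Cells just inside and just outside the marker threshold were unlike the bulk of the members. The 43 members with exactly 3 marker UMIs in the library labelled Plaur KO had the monocyte gene Plac8 at 1164 CPM and the monocyte chemokine receptor Ccr2 at 829.9 CPM. The 256 members with more had 261.2 CPM of Plac8 and 88.8 CPM of Ccr2. In the 63 cells with 2 marker UMIs just outside, Plac8 was at 2424 CPM and Ctsd, a lysosomal protease, at 581.5 CPM against 4304 CPM in the 256 members. The library labelled WT had 31 cells with exactly 3 and 31 with exactly 2, and Plac8 there was at 180.0 and 1020 CPM.

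**Figure D1:**
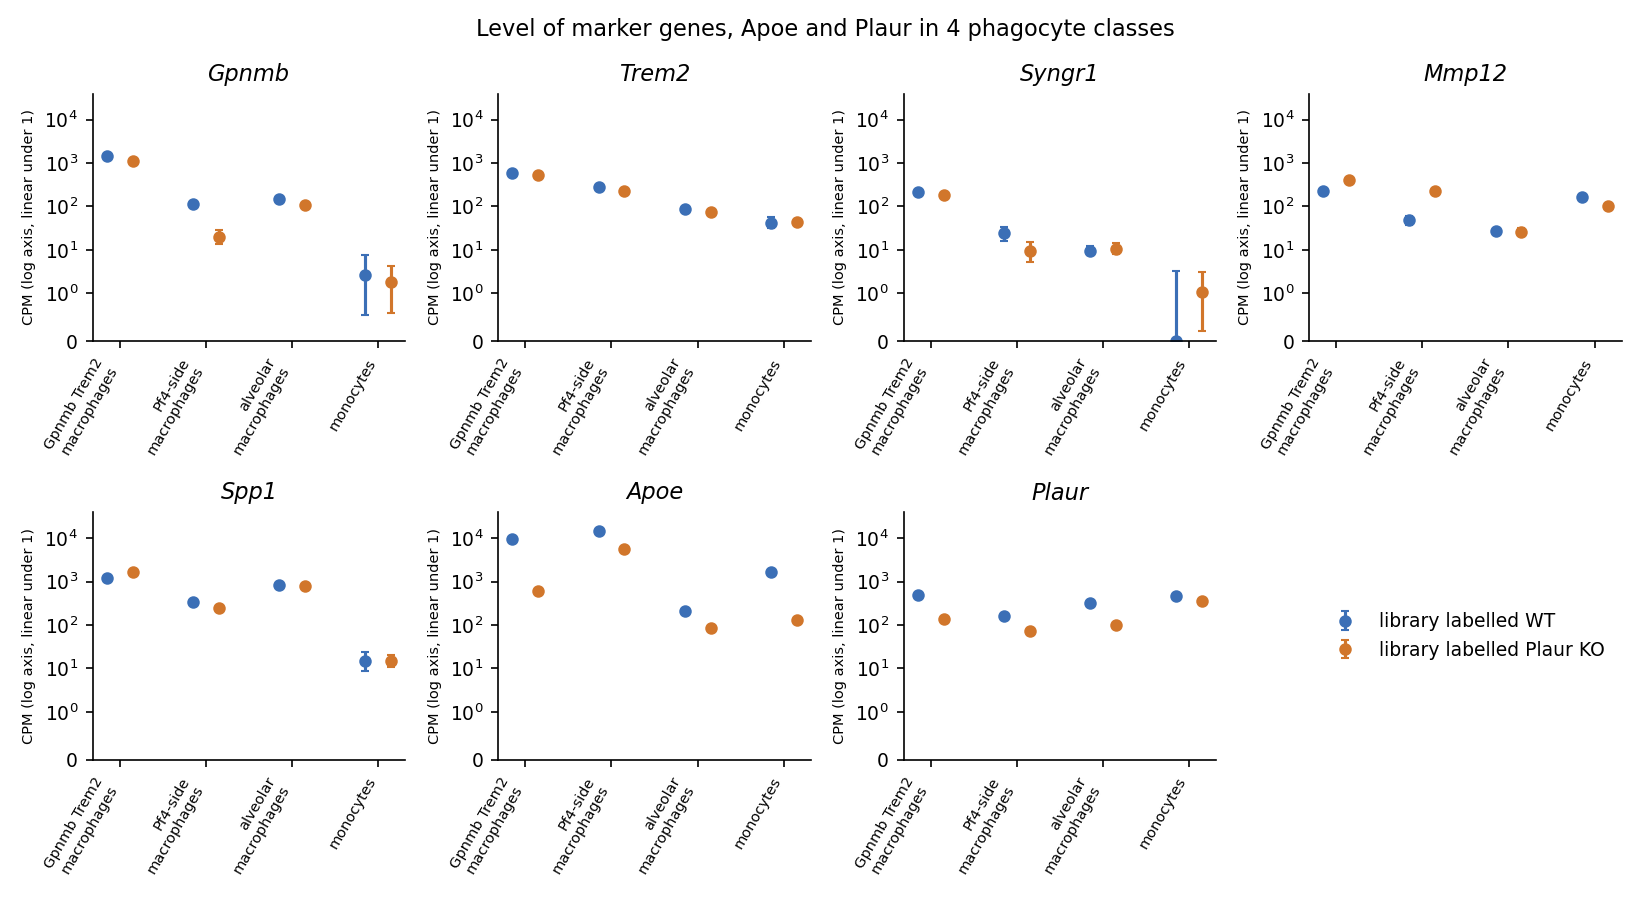
CPM (log axis, linear under 1) of 5 marker genes, Apoe and Plaur in the members and 3 other phagocyte classes, with points for each library and bars for exact Poisson 95% intervals. Gpnmb and Syngr1 are highest in the members, and Apoe in the library labelled Plaur KO is at 590.7 CPM in members and 5710 CPM in Pf4-side macrophages.

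Members formed a smaller share of the cells in the library labelled Plaur KO. They were 5.29% of filtered cells (exact Clopper-Pearson interval 4.83% to 5.77%) in the library labelled WT and 2.98% (2.65% to 3.33%) in the other. The ratio of these shares was 0.563 (0.486 to 0.652). Among 4 mononuclear phagocyte classes defined by rule, members were 24.8% and 18.1%, and the log2 ratio was then -0.45 (-0.67 to -0.24) in place of -0.83. The other classes were Pf4-side macrophages (219 and 312 cells, where Pf4, Ccl12 and Ccl8 reached at least 3 UMIs and at least equalled the marker sum), alveolar macrophages (1038 and 643) and monocytes (180 and 401). The share of alveolar macrophages was also lower, at 0.552 (0.499 to 0.609) of that labelled WT, and that of monocytes higher, at 1.98 (1.66 to 2.38). A share is relative to all other cells of its library, so it does not give cell numbers per lung.

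Surface CD11b is the measurement that the rule did not use. CD11b, the integrin alpha chain encoded by Itgam, is carried by monocytes, neutrophils and recruited macrophages and is low on alveolar macrophages. The 5 antibodies were read through a 15-base tag each, printed 5′ to 3′ because these letters are what was counted for each surface protein.
CD11b: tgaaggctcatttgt
CD14: aaccaacagtcacgt
CCR3: tagaaccgtatccgt
Ly-6C: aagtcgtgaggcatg
ST2: gcgatggagcatgtt
No letter is set apart, since the whole tag identifies the antibody.

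Members carried more CD11b tags than each other phagocyte class in both libraries. In the library labelled WT the mean was 196.5 tag UMIs per member, the median 140 and the highest 1441. In the library labelled Plaur KO the mean was 153.0, the median 112 and the highest 740. Every member had at least 1 CD11b tag. The medians were 34 and 31 in Pf4-side macrophages, 8 and 8 in alveolar macrophages, and 60.5 and 60 in monocytes. B cells, which serve as the background class, had medians of 4 and 5. On the log2 scale the mean of members was 3.38 above that of B cells in the library labelled WT and 2.69 in the other. Cells of the classes overlapped: the lowest 5% of members had at most 20.2 and 18.8 tags, and the highest 5% of Pf4-side cells at least 209 and 124.3. Itgam RNA was at 276.8 and 247.0 CPM, a log2 ratio of -0.16 (-0.31 to -0.02).

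By their means, the other 4 antibodies stayed near the B cell level in members. Ly-6C, a monocyte surface protein, had means of 13.9 and 30.4 tags per member, and B cells of the same libraries had 11.5 and 23.8. Relative to B cells this was 0.28 and 0.36 on the log2 scale, against 1.96 and 1.60 in monocytes. CD14, a lipopolysaccharide co-receptor, had means of 4.24 and 3.32 tags (B cells 3.06 and 2.57), although Cd14 RNA was at 439.2 and 487.7 CPM. The CD14 medians were wider apart, at 4 and 3 tags in members and 2 and 2 in B cells. CCR3, an eosinophil chemokine receptor, had means of 1.26 and 0.987 (B cells 1.41 and 1.04). ST2, the receptor for interleukin 33, had means of 0.793 and 0.896 (B cells 0.760 and 0.898).

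**Figure D2:**
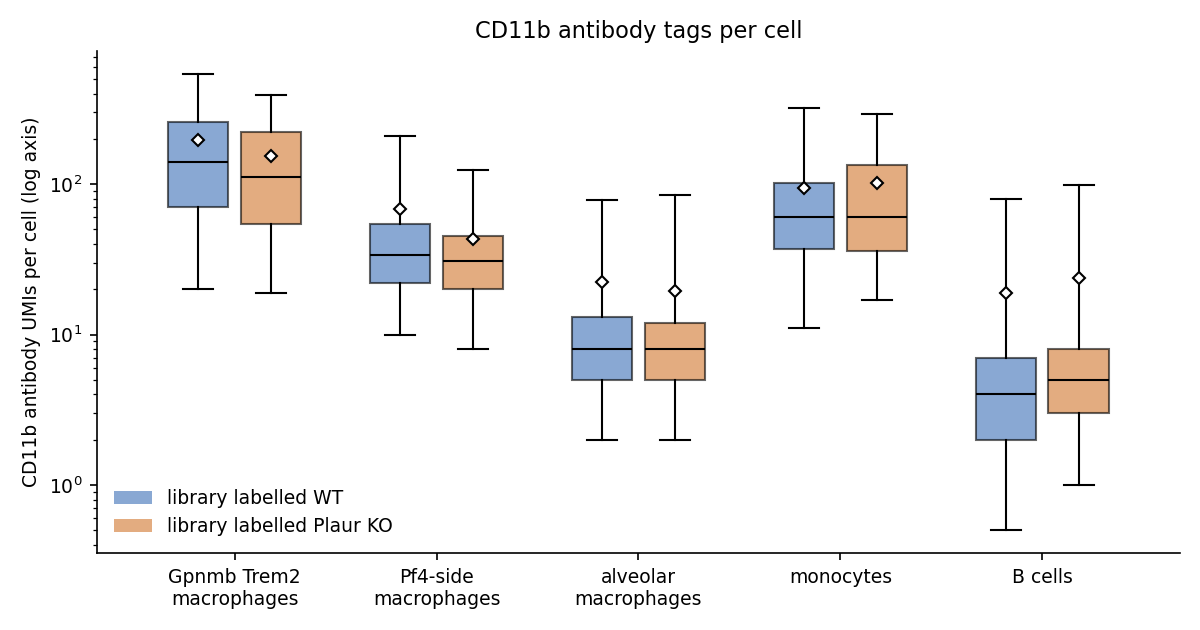
CD11b antibody UMIs per cell (log axis) by class and library. Boxes span the quartiles with the median as a line, whiskers reach the 5th and 95th percentiles (0 is drawn at 0.5), and diamonds are means; medians of members are 140 and 112, above those of the other 4 classes.

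Ctsk, Inhba, Sgk1 and Bhlhe41 were among the 12 genes that stood highest in members against Pf4-side macrophages. Of 7137 genes with at least 50 UMIs over the cells compared in each library, 306 (4.29%) were at least 2-fold higher in members in both libraries and 359 (5.03%) at least 2-fold lower. Ctsk, a collagen-degrading cathepsin, was at 82.4 CPM in members and 8.95 in Pf4-side cells in the library labelled WT, and at 88.9 and 2.94 in the library labelled Plaur KO. Inhba, a subunit of the TGF-beta family ligand activin A, was at 238.3 and 28.4 CPM, then at 327.2 and 7.65. Sgk1, a kinase induced by steroids and stress, was at 856.5 and 97.7 CPM, then at 828.3 and 70.0. Bhlhe41, a transcription factor of alveolar macrophages, was at 117.3 and 15.7 CPM, then at 109.0 and 2.35. Each of these genes was higher in members than in Pf4-side cells of both libraries, and the markers used by the rule are left out. Against alveolar macrophages they differed by gene. Ctsk was higher in alveolar cells than in members, at 541.5 CPM in the library labelled WT and 490.7 in the library labelled Plaur KO. So were Sgk1 (1068 and 1209 CPM) and Bhlhe41 (174.3 and 145.7 CPM). Inhba was lower in alveolar cells than in members, at 138.0 and 164.9 CPM.

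Some genes of resident interstitial macrophages were near 0 in members, and others were not. The 20 listed markers of that cell type summed to 4899 and 4969 CPM in members and to 27351 and 28105 CPM in Pf4-side macrophages, with 19 and 17 of the 20 detected in members. The list holds Ccl8, which the rule used to part these classes, so part of this gap was set by the rule. Ccl8 was at 31.1 and 30.7 CPM in members and at 1625 and 1792 CPM in Pf4-side cells. The complement subunits C1qa (840.4 and 634.0 CPM) and C1qb (1030 and 848.8 CPM) made up much of the sum in members. The genes named next are from the 12 lowest. Cxcl13, a B cell chemokine, had 1 and 0 UMIs in members against 255.9 and 139.4 CPM in Pf4-side cells. Cd163, the haemoglobin scavenger receptor, was at 0.230 and 1.57 CPM against 108.9 and 168.2. Folr2, a folate receptor of resident macrophages, was at 1.38 and 0.393 CPM against 112.7 and 94.7, and Ccl24, an eosinophil chemokine, at 2.99 and 15.7 against 882.7 and 722.9. Ednrb, the endothelin receptor B, had 0 UMIs in members of both libraries, with upper interval bounds of 0.849 and 1.45 CPM. The listed scavenging and complement genes were at least 2-fold lower than in Pf4-side cells in both libraries for 15 of 30 and higher for 4. Of all genes 5.03% were lower and 4.29% higher. By the same count 10 of 28 were higher and 6 lower against alveolar macrophages, and 7 and 5 of 28 against monocytes.

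Lipid-associated and lysosomal genes, counted without the genes of the rule, were more often higher than lower in members. Of 28 measured genes of the lipid-associated macrophage programme, 11 were at least 2-fold higher than in Pf4-side macrophages in both libraries and 3 lower, with medians of 0.74 and 0.64 where all genes had 0.032 and -0.0087. Of 59 lysosomal genes, 10 were higher and 1 lower than in Pf4-side macrophages, where 4.29% and 5.03% of all genes were. MHC class II presentation genes were lower for 6 of 13 and higher for 1 against Pf4-side macrophages. Against alveolar macrophages they were higher for 6 of 15 and lower for none, where 5.59% and 7.11% of all genes were. Against monocytes 1 of 16 was higher and 2 lower.

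Against alveolar macrophages, 472 of 8449 genes (5.59%) were at least 2-fold higher in both libraries and 601 (7.11%) lower. Il7r, the interleukin 7 receptor chain best known from lymphocytes, was at 367.4 CPM in members and 11.1 in alveolar cells in the library labelled WT, and at 391.3 and 11.6 in the library labelled Plaur KO. It was found in 71.7% and 67.9% of members. Cd3e is at 0 in members by the rule, and Il7r makes up most of the summed level of the 17 T cell markers (407.9 and 428.3 CPM). Pdgfa, a growth factor for mesenchymal cells, was at 133.7 and 2.89 CPM, then at 109.7 and 2.51. The monocyte-attracting chemokines Ccl2 (1026 and 45.2 CPM, then 1403 and 87.7) and Ccl7 (1321 and 48.8, then 1707 and 78.6) were likewise higher in members. C1qb, a complement subunit, was at 1030 and 32.1 CPM, then at 848.8 and 55.3.

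Among the 12 genes that stood lowest against alveolar macrophages were Krt19, Cidec and Kcnip4. Krt19, a keratin, had 0 UMIs in members against 211.8 and 150.5 CPM, and Cidec, a lipid droplet protein, was at 0.460 and 0 CPM against 124.3 and 142.0. Kcnip4, a potassium channel partner, was at 7.13 and 2.75 CPM against 1177 and 917.8. Of 40 type I interferon response genes, 18 were at least 2-fold higher than in alveolar macrophages in both libraries and none lower. The listed chemokines gave 11 of 22 higher and 1 lower. The rule removes cells with 2 or more of 6 alveolar genes, so part of this contrast was set by it. By the same count these lists went otherwise against other classes. Type I interferon genes were higher for 0 of 38 and lower for 4 against Pf4-side macrophages, and 0 and 13 of 42 against monocytes. Chemokines were higher for 3 of 23 and lower for 10 against Pf4-side macrophages, and 7 and 3 of 22 against monocytes. Of all 7545 genes compared with monocytes, 428 were higher and 544 lower.

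The members were not uniform. Leiden clustering without Plaur and the 16 rule genes gave 7 subclusters, numbered by size, whose leading genes are a description. Subcluster 1 (156 and 103 cells) was led by the arginase Arg1, the neutrophil chemokine Cxcl3 and Inhba. Subcluster 2 (133 and 74 cells) was led by Cd72, Cadm1, C1qa and the growth factor Igf1. Subcluster 3 (104 and 50 cells) was led by the nitric oxide synthase Nos2, the interferon-gamma chemokine Cxcl9 and guanylate-binding proteins. These 3 held 393 of 473 and 227 of 299 members.

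The other 4 subclusters carried leading genes of other cell types and stay unnamed. In subcluster 4 (33 and 8 cells, 8 of them doublet calls) 7 of the 10 leading genes were neutrophil markers, among them Cxcr2 and S100a9. Subcluster 5 (23 and 14 cells) had 4 markers of CCR7 dendritic cells among its 10, with Ccl17, Ccl22, Fscn1 and Ccr7. Subcluster 6 (16 and 21 cells) had 4 alveolar markers, with Plet1, Ear2 and Chil3 among them. Subcluster 7 (8 and 29 cells) had the monocyte gene Plac8 beside the lymphocyte genes Gzma and Nkg7, and its mean Ly-6C tag was 119.8 in the library labelled Plaur KO, against 30.4 over all its members. Results are therefore given for all members and for the 3 largest subclusters alone, a choice made after the subclusters were seen. Over those 3, the share of filtered cells was 4.39% and 2.26%, a log2 ratio of -0.96 (-1.20 to -0.72).

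Surface CD11b varied between subclusters. Its mean was 252.8 and 178.0 tags in subcluster 1, 117.7 and 87.1 in subcluster 2, and 148.1 and 155.0 in subcluster 3. It was highest, at 409.8 and 265.5, in subcluster 4, where neutrophil genes led. The order of subclusters 1, 3 and 2 held in both libraries.

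Plaur, the targeted gene, was lower but not absent in the library labelled Plaur KO. It had 2173 UMIs (499.9 CPM, interval 479.1 to 521.4) in members labelled WT and 352 UMIs (138.4 CPM, 124.4 to 153.7) in the others, a log2 ratio of -1.85 (-2.02 to -1.69). The median cell had 3 and 1 UMIs, and the highest 38 and 17. In cells thinned to 2000 UMIs, Plaur was found in 53.2% and 19.0% of members, against 86.3% and 50.5% unthinned. B cells gave 28.6% and 38.9% at the same depth (median depths before thinning 2481 and 2304.5 UMIs), and monocytes 44.8% and 47.0%. Pf4-side macrophages gave 22.7% and 11.8%, and alveolar macrophages 44.4% and 15.7%. The share in members labelled Plaur KO was thus below those of B cells and monocytes of that library. The source of the Plaur UMIs that remained in members was not tested. A 3′ tag may lie outside the deleted part, so these counts do not check the knockout. In the 3 largest subclusters the ratio was -2.36 (-2.60 to -2.12), and in subclusters 5 and 7 it was -0.85 and -0.83.

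Over all members, 80 of 8304 genes with at least 50 UMIs (0.963%) were at least 2-fold higher in the library labelled Plaur KO and 63 (0.759%) at least 2-fold lower. Of 7523 genes in the 3 largest subclusters, 31 were higher and 65 lower. Over all members 13 of those 31 and 19 of those 65 had also passed 2-fold. Below, the 12 highest and 12 lowest genes, by the interval bound nearest 0 and without marker genes of other cell types, are described by role.

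Apoe had the lowest ratio of these genes by that bound. It was at 9556 CPM (9464 to 9648) in members labelled WT and 590.7 CPM (561.2 to 621.4) in members labelled Plaur KO, a log2 ratio of -4.02 (-4.09 to -3.94). The median cell had 58 and 0 UMIs, the 90th percentile was 204 and 12.2, and the highest cell 703 and 153. Apoe was found in 93.4% and 25.1% of members, and in 89.5% and 17.3% after thinning. B cells, the background class, had 23.3% and 4.91% after thinning, so Apoe UMIs were also more frequent in that class in the library labelled WT.

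The Apoe gap was seen in each large subcluster and was of another size in 2 of the other 3 phagocyte classes. In subcluster 1 Apoe was at 7168 and 433.4 CPM, in subcluster 2 at 13628 and 1265 CPM, and in subcluster 3 at 11784 and 282.5 CPM. Only subcluster 6, led by alveolar genes, had levels whose intervals overlapped, 1033 and 928.3 CPM. Pf4-side macrophages had 14744 and 5710 CPM, a log2 ratio of -1.37, and alveolar macrophages 209.6 and 86.3 CPM, one of -1.28. Monocytes had 1681 and 128.3 CPM, a ratio of -3.71. Differences between these ratios were not tested. In members labelled Plaur KO, 36.3% of Apoe UMIs lay in 5 cells, and without the 5 highest cells of each library the ratio was -4.55.

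**Figure D3:**
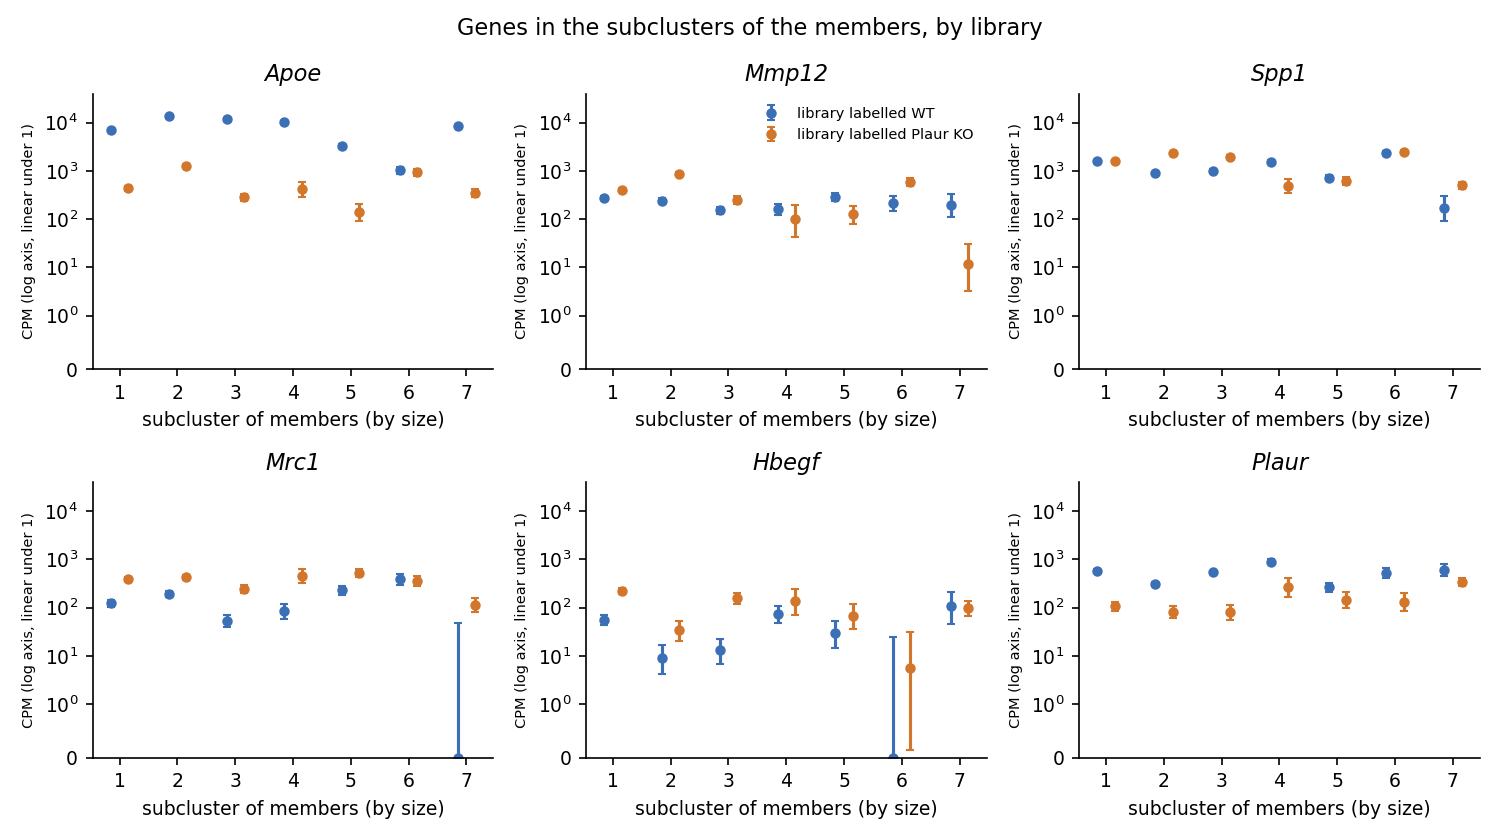
CPM (log axis, linear under 1) of 6 genes in the 7 subclusters of the members, with points for each library and bars for exact Poisson 95% intervals. Apoe is lower in the library labelled Plaur KO in subclusters 1 to 5 and 7, and the Mmp12 gap is widest among the large subclusters in subcluster 2 (242.8 and 865.4 CPM).

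Apoe and Plaur lie on the same chromosome. In the mm10 build Plaur spans chr7:24460937-24475970 and Apoe chr7:19696244-19701310, 4.76 Mb away. Apoc2, a lipoprotein lipase cofactor in the same gene cluster (chr7:19671579-19677941), had 204 and 8 UMIs, or 46.9 and 3.15 CPM, a log2 ratio of -3.90 (-5.13 to -2.89). It had 164 and 1 UMIs in the 3 largest subclusters. Ptgir, the prostacyclin receptor (chr7:16906490-16910905), was at 43.9 and 19.3 CPM. Tomm40, a mitochondrial import pore that lies next to Apoe (chr7:19701313-19715442), was at 42.8 and 28.7 CPM, a log2 ratio of -0.58 (-0.99 to -0.18).

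Most genes near Plaur differed less. Within 10 Mb of Plaur 169 genes were measured at 20 or more UMIs, with a median log2 ratio of -0.079 beside -0.019 over all genes. Of the 134 with at least 50 UMIs, 4 (2.99%) were at least 2-fold lower (Plaur, Apoe, Apoc2 and Ptgir), beside 0.759% of all genes. In the other direction 1 (Pglyrp1) was at least 2-fold higher, beside 0.963%. Some genes with fewer UMIs had wide gaps in both directions. Irgc1 (chr7:24431919-24445682), close to Plaur, had 11 and 37 UMIs, a log2 ratio of 2.52 (1.52 to 3.64). The Irgc1 ratio was 2.24 in Pf4-side and 1.71 in alveolar macrophages. Cd177 had 6 and 24 UMIs (2.77, 1.45 to 4.35), and Ccdc61 had 25 and 1 (-3.87, -9.23 to -1.26). The labels do not say how the knockout was made. The deletion and any other difference linked to it on this chromosome cannot be told apart.

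RNA of the TREM2 partners Tyrobp and Syk was close between the libraries. Tyrobp, the adaptor of TREM2, was at 1917 and 2107 CPM, and Syk at 294.0 and 280.0 CPM. Trem2 itself had a log2 ratio of -0.17 (-0.27 to -0.07), but it is a gene of the rule, so this is a description. Genes of the rule were not taken out of the list counts that follow, so the rule may have set part of them. Of 20 measured genes of the TREM2 list, 10 were higher and 10 lower, with a median of -0.0056. Apoe passed 2-fold downwards, and Treml2 (7.36 and 15.3 CPM) and Ms4a4a (3.68 and 16.9 CPM) upwards at low levels. The lipid-associated programme was split too, with 16 of 32 genes higher and 16 lower, and a median of -0.00039. Fabp5, a fatty acid carrier, was at 2402 and 2376 CPM, and Cd63, a late endosome tetraspanin, at 1328 and 1301 CPM.

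Within that programme single genes differed in both directions. Mmp12, the elastase, was higher in members labelled Plaur KO, with a log2 ratio of 0.84 (0.72 to 0.97). It was found in 29.0% and 35.8% of members, and 29.9% of its UMIs in the library labelled Plaur KO lay in 5 cells. Without the 5 highest cells of each library the ratio was 0.65, and it was 1.15 in the 3 largest subclusters (230.9 and 513.0 CPM). Mmp12 was also higher in Pf4-side macrophages labelled Plaur KO, at 48.5 and 226.5 CPM. In alveolar macrophages it was at 26.5 and 26.0 CPM, and in monocytes it was lower, at 165.5 and 101.6 CPM. Spp1 had a ratio of 0.41 (0.36 to 0.47) over all members. In subcluster 2 it was at 891.9 and 2350 CPM, in subcluster 3 at 1004 and 1965, and in subcluster 1 at 1633 and 1603, where the interval of the ratio held 0. Lpl, which releases fatty acids from lipoproteins, was at 170.7 and 266.7 CPM, and Atp6v0d2, a proton pump subunit, at 158.0 and 261.6 CPM. Cadm1, an adhesion molecule, was at 59.4 and 26.7 CPM, a ratio of -1.15 (-1.56 to -0.76) that became -0.70 in the 3 largest subclusters.

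Cholesterol and lipoprotein genes were lower for 25 of 40 (median -0.11), beside 5251 of 10012 over all genes. Of 38 with enough UMIs 4 passed 2-fold downwards, where 0.759% of all genes did, and none upwards. These 4 were Apoe and Apoc2, which lie near Plaur, Insig1, and Mylip, a ubiquitin ligase (30.6 and 14.6 CPM). Abca1, the pump that loads cholesterol onto apolipoproteins, was at 118.5 and 66.9 CPM, a ratio of -0.83 (-1.08 to -0.57). Acsl1, which activates long-chain fatty acids, was at 252.4 and 127.4 CPM, and was found in 68.1% and 47.5% of members. Insig1, a sterol-regulated brake on cholesterol synthesis, was at 24.4 and 11.4 CPM. Abcg1, the partner of Abca1 in sterol export, was at 168.2 and 145.9 CPM, a smaller gap than that of Abca1. Lysosomal genes were lower for 45 of 62 by small amounts (median -0.13), and none passed 2-fold. Ctsd was at 4546 and 3872 CPM, Ctsb at 2779 and 2225 CPM, and Slc11a1, a phagosomal metal pump, at 134.3 and 79.4 CPM. The lysosomal median of the 3 largest subclusters was -0.053, near the median of -0.042 for all genes there.

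Genes of alternative activation were mostly higher in the library labelled Plaur KO, in each of the 3 largest subclusters too. Over all members 21 of 26 were higher, with a median of 0.48, beside 4761 of 10012 over all genes (median -0.019). Of the 26, 6 passed 2-fold upwards, where 0.963% of all genes did. The 3 largest subclusters had 20 of 23 higher (median 0.49). The medians within subclusters 1, 2 and 3 were 0.73, 0.37 and 0.46, where all genes had -0.036, -0.034 and 0.0031. The median was 0.27 without the 5 highest cells of each gene and 0.21 in members with at least 5 marker UMIs. The list was chosen with earlier results of these libraries known, so this is no independent evidence of its direction.

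Mrc1, the mannose receptor, was at 139.6 and 347.7 CPM, a ratio of 1.32 (1.17 to 1.47), and 122.8 and 392.6 CPM in subcluster 1 alone. Chil3, a chitinase-like secreted protein, was at 220.0 and 810.9 CPM in the 3 largest subclusters, but at 8487 and 5598 in subcluster 6 and 5049 and 788.7 in subcluster 7, where it was lower. With the 7 subclusters weighted alike its ratio was -0.40. Arg1 was at 25.1 and 96.4 CPM over all members, but 83.5% and 61.2% of its UMIs lay in 5 cells of each library, and it was found in 4.02% and 11.4% of members. Without those cells it was at 4.19 and 38.3 CPM, and the ratio went from 1.94 to 3.19. It was higher in subclusters 1 and 2, while the interval held 0 in subcluster 3. Retnla, another alternative activation product, had the highest ratio of the 12, 3.85, yet it was found in 1.06% and 2.01% of members, and without the 5 highest cells of each library it had 0 and 1 UMIs. In the library labelled Plaur KO 280 of its 286 UMIs lay in 1 cell, so this ratio rests on that cell.

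Hbegf, a membrane-bound ligand of the EGF receptor, was higher by 1.92 (1.63 to 2.21), at 33.1 and 125.1 CPM. It was found in 11.4% and 24.1% of members. It was at 56.6 and 220.4 CPM in subcluster 1, at 8.99 and 34.5 in subcluster 2, and had 12 and 63 UMIs in subcluster 3. Without the 5 highest cells of each library it was at 22.9 and 87.7 CPM. The ratio without these cells was 1.94, close to that of all members.

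Several other genes on the higher side had lower levels without their 5 highest cells. Edn1, the vasoconstrictor peptide endothelin 1, was at 9.20 and 37.0 CPM, with 40 and 94 UMIs, but 20 and 30 UMIs without its 5 highest cells. Fstl1, a secreted glycoprotein, was at 3.68 and 38.5 CPM, then 1.64 and 10.9. H2-M2, a nonclassical MHC gene, was at 16.1 and 57.8 CPM, then 9.77 and 22.9. Hmox1, which degrades haem, was at 77.1 and 167.2 CPM, and at 66.6 and 80.5 without its 5 highest cells, so most of its difference lay in them. Mt2, a metal-binding metallothionein, was at 23.9 and 62.5 CPM and kept a ratio of 1.73 without those cells. Hprt, which recycles purine bases, had a ratio of 1.07 without its 5 highest cells and 1.12 with them. It was found in 51.4% and 72.2% of members at 93.2 and 203 CPM, with a ratio of 0.75 in the 3 largest subclusters. Hprt was also higher in Pf4-side macrophages (ratio 0.31), alveolar macrophages (1.07) and monocytes (1.97) of the library labelled Plaur KO. Over all filtered cells the Hprt ratio was 1.87, so its gap was not limited to members. The cause of the Hprt gap was not tested.

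Thbs1, Plcb1, Ms4a6b and Ifitm3 were among the 12 highest but did not hold in the 3 largest subclusters. Their ratios over all members were 3.01, 1.35, 1.39 and 1.19. Without the 4 small subclusters they were -1.17, -0.32, -0.44 and -0.010. Of the 155 Thbs1 UMIs in the library labelled Plaur KO, 152 lay in subcluster 7, so the value for this matrix glycoprotein without it rests on under 20 UMIs. Ccnd3, a cell cycle regulator, was at 32.4 and 79.8 CPM, and was highest in the same subcluster (119.3 and 273.8 CPM). Ccnd3 was also higher in Pf4-side macrophages (ratio 1.62), alveolar macrophages (0.45) and monocytes (0.74) of the library labelled Plaur KO.

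Monocyte markers moved with these genes. All 14 were higher in the library labelled Plaur KO over all members (median 1.73), and their summed level was 1558 and 3438 CPM, against 7811 and 12349 in monocytes. Plac8 was at 24.8 and 387.8 CPM and F13a1, a transglutaminase of monocytes, at 27.6 and 157.3 CPM. Within the 3 largest subclusters 3 of 11 measured monocyte markers were higher and 8 lower, with a median of -0.22, and Plac8 was at 5.03 and 3.40 CPM. Chil3 and Ccr2 remained higher there, Ccr2 at 22.2 and 63.6 CPM. In cells with at least 5 marker UMIs the count of genes 2-fold higher was 35. The part of monocyte RNA in the other ratios was not tested.

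**Figure D4:**
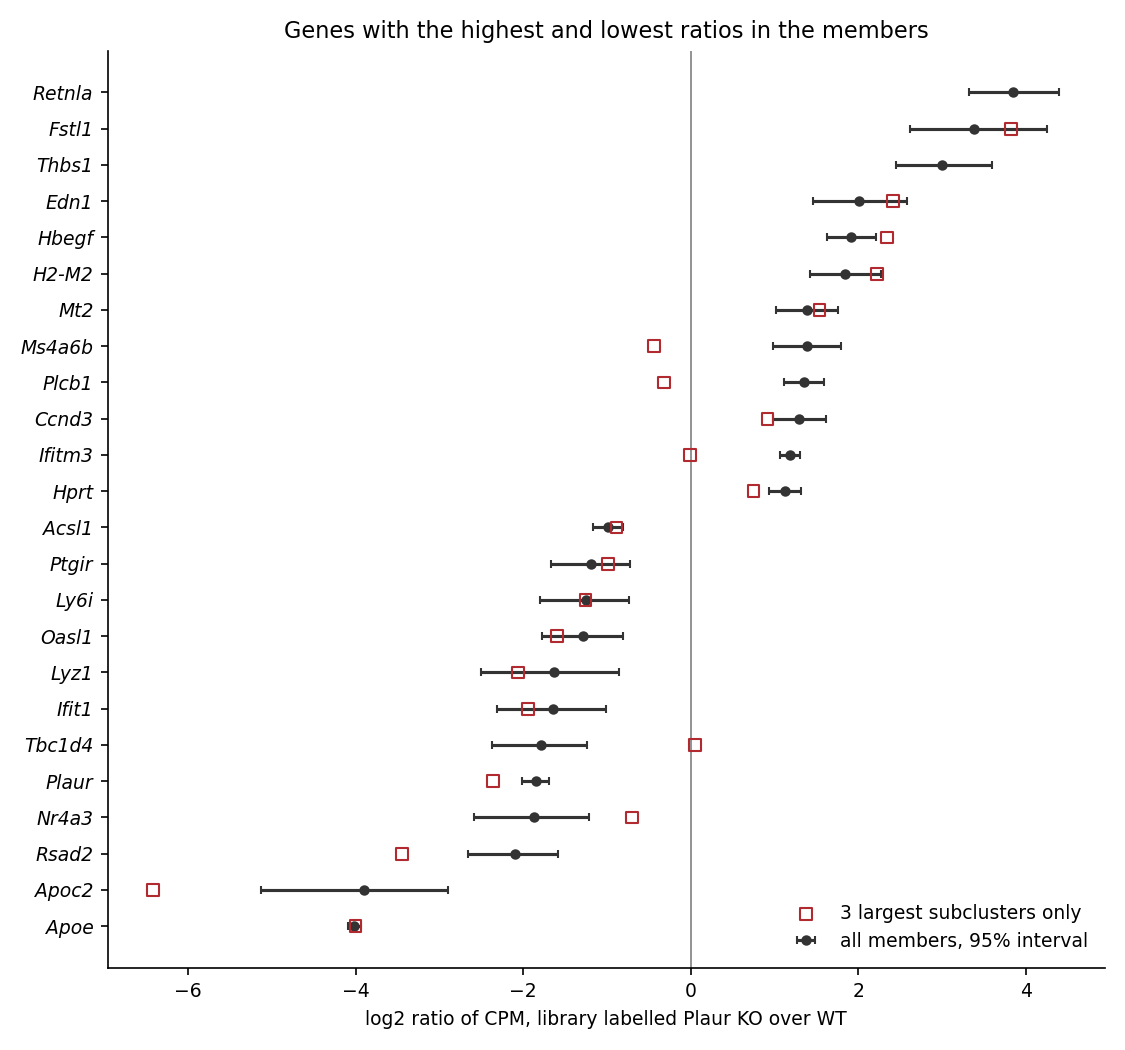
log2 ratio of CPM, library labelled Plaur KO over WT, for the genes with the highest and lowest ratios and Plaur. Dots are all members with exact 95% intervals and open squares the 3 largest subclusters (not drawn for Retnla and Thbs1, with under 20 UMIs there); squares fall near or below 0 for Ms4a6b, Plcb1 and Ifitm3.

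Of the 44 type I interferon response genes with enough UMIs, 3 were at least 2-fold lower over all members, where 0.759% of all genes were. At least 2-fold higher were 2 of the 44, where 0.963% of all genes were. Rsad2, an antiviral enzyme, was at 59.1 and 13.8 CPM, a ratio of -2.10 (-2.66 to -1.59). Oasl1 was at 43.9 and 18.1 CPM and Ifit1, which binds viral RNA, at 30.6 and 9.83 CPM. Few members carried them: Rsad2 was found in 10.8% and 6.35%, Oasl1 in 15.9% and 7.36%, and Ifit1 in 10.4% and 6.02%. The higher ones were Ifi27l2a, at 115.5 and 311.9 CPM, and Ms4a4c, at 25.8 and 75.9 CPM. In subcluster 3 Rsad2 was at 207.3 and 7.43 CPM. Over all members 29 of 46 type I interferon response genes were lower, with a median of -0.068, and 5251 of 10012 genes were lower in the whole table. Among the 3 largest subclusters 37 of 45 were lower (median -0.37), and in subcluster 3 alone 35 of 42 (median -0.54), while the medians in subclusters 1 and 2 were -0.11 and -0.063. With the 7 subclusters weighted alike the median turned to 0.050.

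Of 40 genes of the interferon-gamma response and MHC class I presentation, 28 were lower over all members (median -0.23). Irf1, a transcription factor induced by interferon-gamma, was at 299.1 and 180.1 CPM, and Cxcl10 at 537.2 and 326.1 CPM. Cxcl9, another target of the same signal, was at 724.9 and 702.0 CPM, so these genes did not shift alike. Within subcluster 3, which held 2333 of 3151 and 1364 of 1785 Cxcl9 UMIs, the list's median was -0.0073. Cfb, complement factor B, was at 223.2 and 129.0 CPM. Of the other genes with the lowest ratios, the lysozyme gene Lyz1 had 85 and 16 UMIs, Ly6i was at 36.6 and 15.3 CPM, and Tbc1d4, a regulator of glucose uptake, was at 43.2 and 12.6 CPM but had a ratio of 0.047 in the 3 largest subclusters.

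Immediate early genes, which respond within minutes to stimulation or to tissue handling, were higher for 28 of 35 (median 0.22), and in 29 of 35 in the 3 largest subclusters. Fos was at 598.4 and 887.3 CPM, Dusp1, a phosphatase that ends MAP kinase signals, at 375.4 and 713.5 CPM, and Junb at 714.3 and 735.1 CPM. Nr4a3, a nuclear receptor of the same class, went the other way at 31.5 and 8.65 CPM, with most of its UMIs in subcluster 5. Nuclear oxidative phosphorylation genes were higher for 30 of 33 by small amounts (median 0.16), Ndufa4 most, at 106.0 and 181.3 CPM.

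Chemokines differed by gene. The monocyte attractants Ccl2 (1026 and 1403 CPM) and Ccl7 (1321 and 1707 CPM) were higher in the library labelled Plaur KO. Cxcl16, a scavenger and chemokine (644.1 and 461.7 CPM), and Ccl5 (511.2 and 399.2 CPM) were lower. Of 26 measured, 13 were higher and 13 lower.

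Urokinase and its partners were measured as well. Of 21 plasminogen activation genes 9 were higher and 12 lower (median -0.098). Plau, urokinase itself, was at 62.1 and 49.2 CPM, a ratio of -0.34 (-0.66 to -0.03). Lrp1, which takes up inhibitor-bound urokinase with its receptor, was at 297.2 and 274.5 CPM. F10, coagulation factor X, was at 203.1 and 311.9 CPM. Tgfbi, a matrix protein induced by TGF-beta, was at 1086 and 765.8 CPM, and Fn1, fibronectin, at 513.2 and 648.2 CPM, though its ratio was -0.015 in the 3 largest subclusters.

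**Figure D5:**
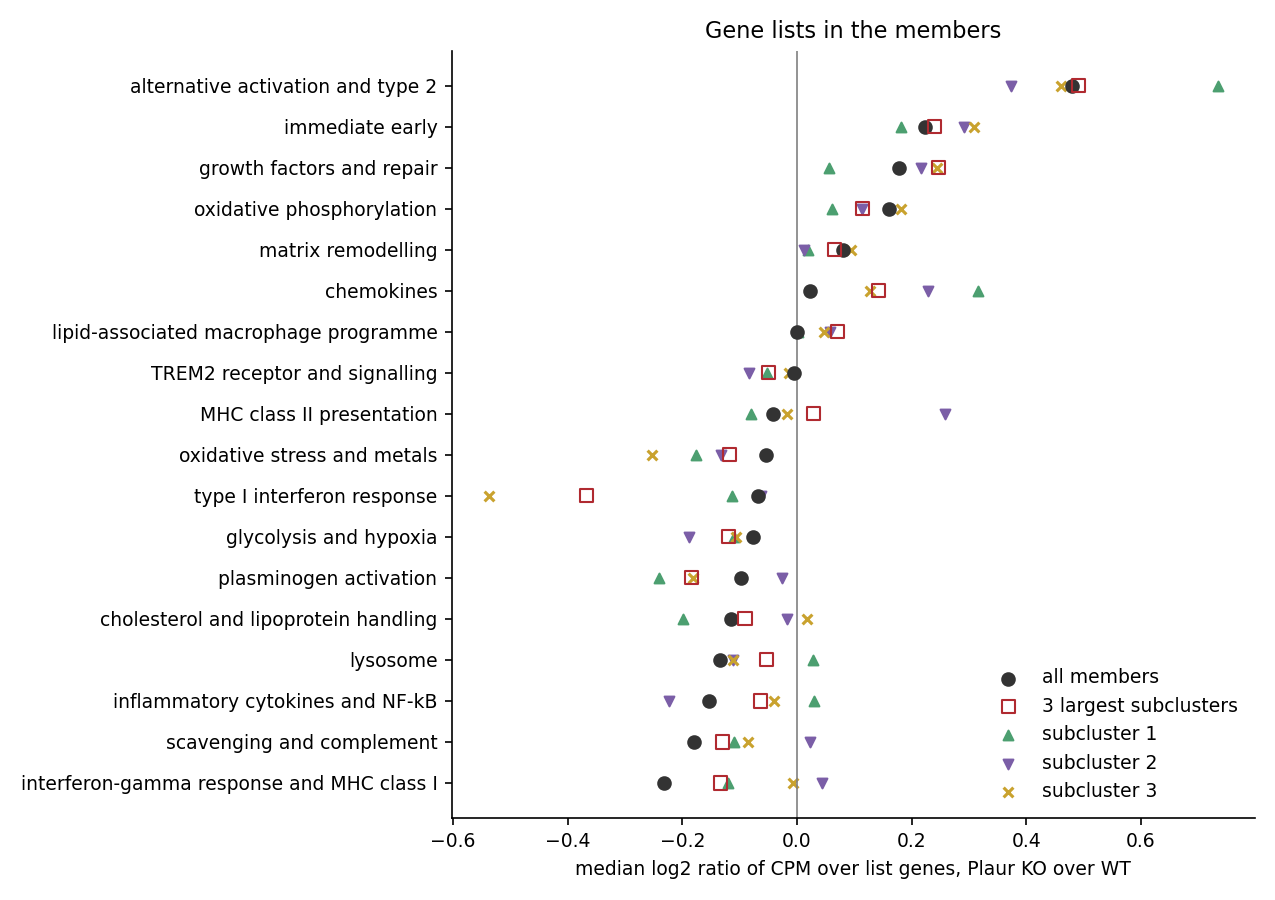
Median log2 ratio of CPM over the genes of 18 lists, library labelled Plaur KO over WT, for all members (dots), the 3 largest subclusters (squares) and each of these alone. Alternative activation has the highest median for all members (0.48), and type I interferon genes reach -0.54 in subcluster 3.

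RNA of further cell types was present in members to different extents. Summed B cell markers were at 113.9 and 113.3 CPM with Pax5 at 0 UMIs in the library labelled WT, and epithelial markers at 30.6 and 36.2 CPM. Neutrophil markers summed to 2421 and 2190 CPM, and 19 and 17 of the 19 had UMIs. This was above the 872.2 and 1221 CPM in Pf4-side macrophages and below the 4829 and 7737 CPM in monocytes. Alveolar macrophages had 1953 and 2338 CPM, above members in the library labelled Plaur KO only. S100a9 was found in 29.4% and 42.8% of members, at 615.8 and 554.6 CPM. Markers of CCR7 dendritic cells summed to 1067 and 812.6 CPM. The part of this RNA in the other values was not tested. Eosinophil markers summed to 3.45 and 5.51 CPM with Epx at 0 UMIs in both libraries, and the listed haemoglobin genes had 0 UMIs.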

How the data were processed

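The values are raw UMI counts of genes and antibodies in each barcode, deposited by the authors. Per the submitters' processing notes, the tools were Cell Ranger 7.1.0 and 7.0.0 and the build was mm10. Chemistry was 10x 3′ with TotalSeq-A antibodies, per the labels' protocols. Barcodes under 200 genes or above 10% mitochondrial UMIs were left out (80 and 61). No cell annotation was used. Scrublet in scanpy 1.11.5 (expected 8%) called doublets, which were kept. For each class the UMIs of a library were added up and converted to CPM. CPM has exact Poisson intervals and log2 ratios have exact conditional binomial intervals, checked on simulated counts. They cover counting error only, and no test was run. A list gene needed 20 UMIs over both libraries, a gene past 2-fold 50. Subclusters used 1500 variable genes, 20 components, 15 neighbours and Leiden resolution 0.5.

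The members, the 21 marker lists and the 20 function lists were chosen with earlier results of these data known. Named genes were Plaur, the rule and marker genes, the 12 highest and 12 lowest ratios at 100 or more UMIs, list members with most UMIs or the most extreme ratios, and the 12 most different from Pf4-side and from alveolar macrophages each way, and 5 leading genes per subcluster. Genes named outside this rule, chosen after their values were seen, are Abca1, Abcg1, Ccl5, Cd63, Cd68, Csf1r, Cxcl16, F10, Fn1, Insig1, Lrp1, Mylip, Pglyrp1, Plau, Syk, Tomm40 and further leading genes of subclusters. Of the listed symbols, 5 are not analysed here. Alternatives used edgeR 4.0.16 and DESeq2 1.42.0 factors on the summed counts.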

Additional observations from a re-analysis of the deposited data

Results flagged for a closer look

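The 5 genes below had ratios of opposite direction in members and in another phagocyte class, each past 2-fold. None of these differences was tested. Ctla4 had a log2 ratio of KO over WT of -1.38 in members (16.3 and 6.29 CPM) and 3.90 in Pf4-side macrophages (2.24 and 33.5 CPM). The level of 2.24 CPM in Pf4-side macrophages labelled WT stands for 3 UMIs. Retnla was at 3.85 in members (7.82 and 112.5 CPM) and -1.87 in Pf4-side macrophages (270.1 and 74.1 CPM), with 280 of its 286 UMIs in members labelled Plaur KO held by 1 cell. Lyz1 was at -1.64 in members (19.6 and 6.29 CPM) and 2.15 in alveolar macrophages (4.94 and 21.9 CPM). Rsad2 was at -2.10 in members (59.1 and 13.8 CPM) and 1.20 in alveolar macrophages (6.87 and 15.8 CPM). Cldn1 was at -2.71 in members (12.9 and 1.97 CPM) and 1.30 in alveolar macrophages (8.92 and 21.9 CPM). In members Cldn1 led subcluster 5.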

How the results depend on the processing

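The lower share of members in the library labelled Plaur KO kept its direction under all 8 alternatives, and its log2 ratio moved outside its interval only among mononuclear phagocytes (-0.45). The counts of genes at least 2-fold higher and lower (80 and 63) were 35 and 97 with at least 5 marker UMIs, 28 and 36 with each cell thinned, 41 and 97 without the 5 cells with most UMIs of the gene, and 25 and 11 at 200 UMIs. Thinning and the higher minimum leave fewer genes to count. With subclusters weighted alike 221 were lower, and in the 3 largest subclusters, an alternative chosen after seeing the data, 31 were higher. Plaur was at -1.69 with subclusters weighted alike and -2.36 in the 3 largest, and Apoe at -3.87 with subclusters weighted alike and -4.55 without its 5 highest cells. Direction was reversed for Retnla with at least 5 marker UMIs (-2.10), and in the 3 largest subclusters for Thbs1 (-1.17), Plcb1 (-0.32), Ifitm3 (-0.010), Ms4a6b (-0.44) and Tbc1d4 (0.047). Values under 2-fold also crossed 0: Chil3 with subclusters weighted alike (-0.40, from 0.98), Il1b in the 3 largest subclusters (0.14, from -0.096), and with subclusters weighted alike the medians of the type I interferon (0.050), TREM2 (0.11) and MHC class II (0.078) lists. Medians of the lipid-associated and chemokine lists stayed within 0.17 of 0 on both sides. The antibody target genes, a list of 3 measured, went from 0.15 to -0.25 with at least 5 marker UMIs and to -0.18 in the 3 largest subclusters. TMM and DESeq2 factors moved the median of all genes by 0.0032 and 0.0026. After thinning, 187 and 230 genes were higher and lower than in Pf4-side macrophages and 267 and 387 than in alveolar macrophages, as fewer genes reach the minimum. CD11b over B cells was 5.13 and 4.49 by medians, and 3.99 without the 1% of cells with most in the library labelled WT. The cause of the other shifts was not tested. With 1 library per genotype, depth sets the precision within a library and nothing here measures the spread between animals. No paired analysis was possible because each genotype has 1 library.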
